A study of Bos taurus with 14 samples.

Results

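CXCL10, CCL8 and CCL2 are chemokines, small secreted proteins that draw blood mononuclear cells into tissue. They were taken by name from a bovine Agilent expression array, on which each has 1 probe. They are thus 3 of the 15208 non-control probes and 3 of the 5925 gene symbols that could be given to the probes. The series compared phosphate-buffered saline (PBS) with interferon tau (IFNT), a type I interferon made by the conceptus of cattle and sheep before implantation, in Bos taurus cells incubated for 2 h. The cells were bovine endometrial stromal cells (BES, 3 samples with PBS and 3 with IFNT) and granulocytes (4 samples with PBS and 4 with IFNT), with 1 array per sample. IFNT was used at 1 mg/mL according to the labels, which give no breed, age, sex or reproductive state of the animals and describe RNA extraction for granulocytes alone. Whether the samples of a group were separate animals or cultures is not stated, so errors and p-values measure the spread among these samples, which may be technical.

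Chemokines bind receptors on the surface of leukocytes and guide the cells along a gradient. CXCL10 (also called IP-10, interferon-inducible protein) is a ligand of CXCR3, which activated T cells and natural killer cells carry. CCL2 (MCP-1) attracts monocytes through CCR2, and CCL8 (MCP-2) is a close relative of CCL2 that can use several CC receptors. In many cell types CXCL10 is switched on through factors that act below the interferon receptor, IRF9 among them, and CCL2 through NF-kappa-B and AP-1 as well. Immune cells gather in the endometrium of early pregnancy, and chemokines made there are among the molecules studied as signals for them.

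The array measures each messenger RNA through a probe of 60 bases, and the first 30 bases of the 3 probes are shown because every value below rests on them.
CXCL10: actgccacccctccaaggggcccatattct
CCL8: cttaggaaatcagtgctcctgtaagtggat
CCL2: tccctgggatggtggaagtgtcctcgcaag
CCL8 and CCL2 are related genes, yet the longest run of bases that their 60-base probes share is 5. The CXCL10 probe shares at most 7 bases in a row with the CCL8 probe and at most 6 with the CCL2 probe. Against all other probes of the array the longest shared runs were 14 bases for CXCL10, 13 for CCL8 and 15 for CCL2. The probe of CXCL10 got its name through the gene number in the file, and those of CCL8 and CCL2 through their transcript accessions. In the gene order of RefSeq (assembly ARS-UCD2.0), CCL8, CCL11 and CCL2 stand next to each other, and CXCL9 and CXCL11 lie on either side of CXCL10 within 2 genes. The files name no genome build, so no position is given.

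Levels are log2 of the processed signal minus the array's 75th percentile, so a level of 0 is a bright probe and most probes lie below it. That percentile was an intensity of 2564 to 3173 on the BES arrays and of 1009 to 1491 on the granulocyte arrays, and 71.6% to 76.1% and 66.4% to 70.9% of the probes were called well above background. Each cell type had its own slide, so in comparisons of level the cell type cannot be told apart from the slide. In the granulocytes PBS samples filled array row 1 and IFNT samples row 2, and there row and treatment cannot be told apart. In the BES, row 1 held PBS samples 1 and 2, while PBS sample 3 shared row 2 with the IFNT samples. No spot of the 3 probes was saturated or marked as an outlier on any array.

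In granulocytes all 3 chemokines rose with IFNT, where 17.2% of all probes tested rose (limma adjusted p under 0.05). CCL8 came into the test through its IFNT arrays alone, so it had to differ. CXCL10 rose 79.6-fold and CCL2 rose 3.45-fold. CCL8 went from below the level that counts as well above background to at least 664-fold higher in processed signal. The size of that bound depends on the background correction. In BES, CXCL10 rose 1.56-fold and CCL2 rose 1.47-fold, where 2.29% of all probes tested rose. CCL8 was not well above background on any of the 6 BES arrays. The responses of CXCL10 and CCL2 differed between the cell types, by 51.0-fold and 2.34-fold, as did those of 26.5% of all probes tested. These are bulk samples, in which fewer cells of a type and less RNA per cell cannot be told apart.

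**Figure D1:**
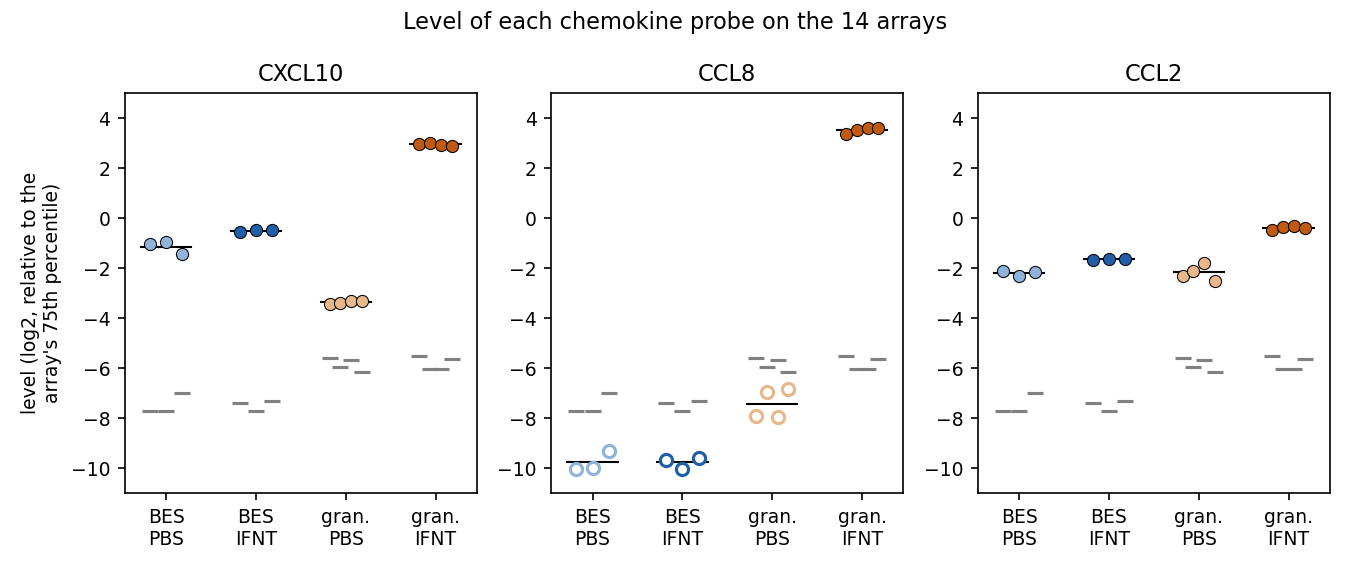
Level of CXCL10, CCL8 and CCL2 (log2, relative to the array's 75th percentile) on each of the 14 arrays, by cell type and treatment. Points are arrays, open points are spots not well above background, black lines are group means and grey ticks are the lowest level called well above background on each array. The granulocyte IFNT arrays lie highest in every panel, and CCL8 is measured above background in that group alone.

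CXCL10 was low in untreated granulocytes and among the brighter signals after IFNT. The granulocyte samples with PBS had scaled levels of −3.43, −3.38, −3.30 and −3.30, with processed intensities of 94.0, 141, 123 and 152. The samples with IFNT had levels of 2.96, 3.02, 2.95 and 2.92, with intensities of 9348, 10534, 9142 and 8823. The groups were far from overlapping, and within each group the arrays lay close together (SD 0.064 with PBS and 0.045 with IFNT, n = 4 each). Groups that did not overlap, with IFNT higher, were found for 16.8% of all probes tested in granulocytes. The rise was 6.31 ± 0.049 on the log2 scale (SE, n = 4 against 4, limma adjusted p = 3.8e-11). Many probes passed the threshold of 0.05 in granulocytes, 44.6% of the 10379 tested in either direction and 17.2% as rises. CXCL10 was the largest rise among the 9702 probes measured above background on all 8 granulocyte arrays, and 2 probes in all, CXCL10 itself and CCL8, had a fitted rise of at least its size. Under normexp background correction with an offset of 50, which compresses low signals, the rise was 5.70.

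CCL8 was not well above background on any granulocyte array with PBS. Its processed intensities there were 4.23, 11.8, 4.91 and 13.1, below the lowest intensity that those arrays called well above background (20.8 to 24.1). In samples 2 and 4 the spot was still positive and significant against its local background, while in samples 1 and 3 the scanner software had written a substitute value. With IFNT the intensities were 12415, 15073, 14448 and 14159, and all 4 spots were well above background. The scaled levels with IFNT were 3.37, 3.54, 3.61 and 3.60, so the replicates spread by 0.11 (SD). Set against the lowest signal well above background on each PBS array, the IFNT group was at least 664-fold higher. This bound, taken from the processed signal, was 9.38 on the log2 scale. The fitted log2 rise of 10.94 ± 0.26 depends on the values at background, and with normexp it was 7.56. That is below the bound, which thus holds for the processed signal alone. CCL8 passed the filter on dim probes through its IFNT arrays alone, so it had to differ, and its place among the rises is a description.

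**Figure D2:**
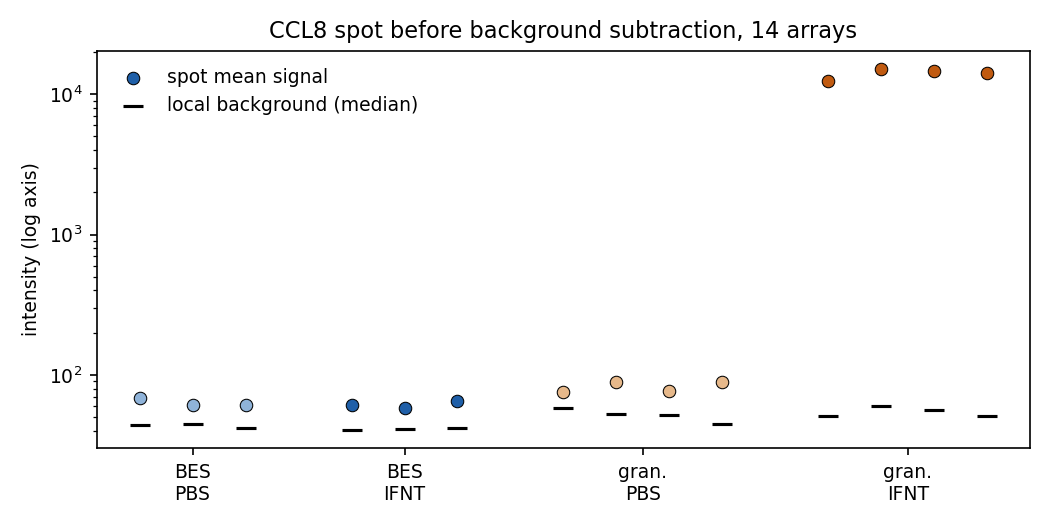
Mean signal of the CCL8 spot before background subtraction (points) and its local background (bars), as intensities on a log axis, for the 14 arrays. In BES the spot reads 57.7 to 68.8 over a local background of 40.5 to 45.0, in granulocytes with PBS 75.3 to 89.7 over 45.0 to 58.0, and in granulocytes with IFNT 12492 to 15145 over 51.0 to 60.5.

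The raw scanner signal shows the same separation without any substitute value. Before subtraction the CCL8 spot gave 75.3 to 89.7 on the granulocyte PBS arrays and 12492 to 15145 on the IFNT arrays, over local backgrounds of 45.0 to 60.5. No value of the PBS group came near the lowest of the IFNT group.

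CCL2 was measured in untreated granulocytes and rose by a smaller factor. The scaled levels with PBS were −2.30, −2.09, −1.78 and −2.49, and the intensities were 205, 346, 352 and 266. With IFNT the levels were −0.48, −0.36, −0.30 and −0.36, and the intensities were 860, 1006, 959 and 907. The groups did not overlap, which held as a rise for 16.8% of all probes tested in granulocytes. The PBS samples were spread more widely (SD 0.30) than the IFNT samples (SD 0.075). A smaller spread with IFNT was common, being found for 66.5% of the 9702 probes measured on all granulocyte arrays. The rise was 1.79 ± 0.14 (SE, n = 4 against 4, limma adjusted p = 1.2e-05), the 136th largest of those 9702 probes, and 1.71% of all probes tested rose by at least as much.

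In BES the chemokines that were measured rose by less than 2-fold. CXCL10 had levels of −1.04, −0.95 and −1.41 with PBS (intensities of 1544, 1329 and 1163) and of −0.56, −0.45 and −0.45 with IFNT (1946, 2271 and 2145). All IFNT samples lay above all PBS samples, PBS sample 3 being the lowest. The rise was 0.64 ± 0.12 (SE, n = 3 against 3, 95% confidence interval 0.35 to 0.94), with a limma adjusted p of 0.0444, just inside the threshold. In BES 3.66% of the 11309 probes tested passed that threshold and 2.29% passed it as rises, so the call is rarer there than in granulocytes. Groups that did not overlap, with IFNT higher, were found for 12.5% of the probes.

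The BES call for CXCL10 rests on every sample but one. Without PBS sample 1 the rise was 0.69 (adjusted p = 0.0917 in limma), without PBS sample 2 it was 0.74 (0.0505), and without IFNT samples 1, 2 and 3 it was 0.68, 0.63 and 0.63 (0.124, 0.113 and 0.150). Without PBS sample 3, the lowest, the rise was 0.51 and the call stayed. The direction was the same each time. With all samples the call was also lost under quantile normalization (0.61, adjusted p = 0.0554) and with no filter on dim probes (0.64, adjusted p = 0.131). A block for replicate number lost it as well (0.64, adjusted p = 0.0746 in limma). With array row as a covariate the value was 0.92, a comparison in which the PBS group is down to sample 3, its lowest.

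CCL2 in BES had levels of −2.11, −2.30 and −2.15 with PBS (intensities of 737, 521 and 696). With IFNT its levels were −1.65, −1.62 and −1.61 (911, 1012 and 964). The groups did not overlap, which held as a rise for 12.5% of all probes tested in BES. The IFNT samples were nearly alike (SD 0.023, against 0.10 with PBS). The rise was 0.56 ± 0.061 (SE, n = 3 against 3, 95% confidence interval 0.41 to 0.71, limma adjusted p = 0.00563). Of all probes tested in BES, 1.65% rose by at least as much as CCL2 and 1.4% by at least as much as CXCL10. With array row as a covariate, which again leaves PBS sample 3 alone in the comparison, the CCL2 value was 0.52 and its adjusted p was 0.0941.

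CCL8 could not be followed in BES. Its processed intensities were 3.06, 2.52 and 4.89 with PBS and 3.51, 2.98 and 3.79 with IFNT, all of them substitute values. The lowest intensity called well above background on these arrays was 12.4 to 24.0. The spot read 57.7 to 68.8 before subtraction over a local background of 40.5 to 45.0, with no separation of the treatments. These arrays therefore set an upper limit on CCL8 in BES and give no change in it.

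**Figure D3:**
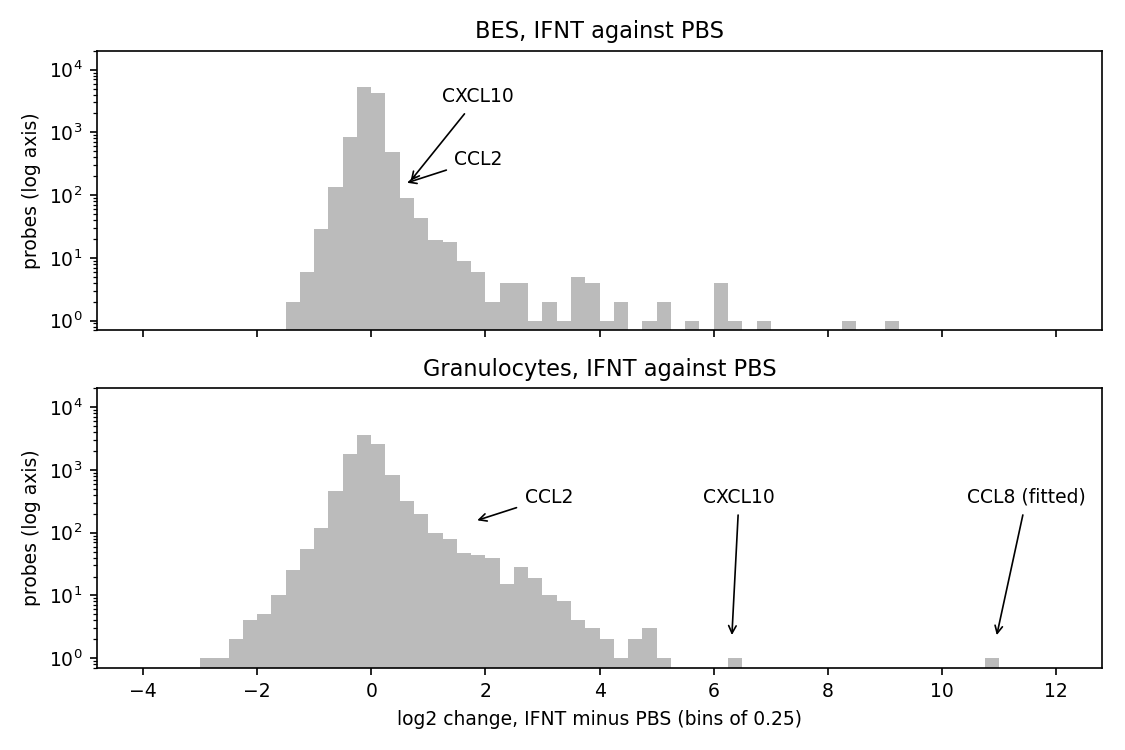
Number of tested probes (log axis) by log2 change, IFNT minus PBS, in bins of 0.25, for BES (top) and granulocytes (bottom). Arrows mark the 3 chemokines where tested. CXCL10 at 6.31 and CCL8 at a fitted 10.94 stand beyond all other probes in granulocytes, while CXCL10 and CCL2 at 0.64 and 0.56 in BES lie in the upper shoulder.

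The cell types were then compared directly. The CXCL10 response in granulocytes exceeded that in BES by 5.67 ± 0.13 on the log2 scale (SE, all 14 arrays, limma adjusted p = 2.7e-11), and by 5.08 with normexp. For CCL2 the difference between the responses was 1.23 ± 0.18 (adjusted p = 3.1e-04). Of the 12046 probes in this fit, 26.5% differed between the responses, and for 11.7% the change with IFNT was more positive in granulocytes. For CCL8 no size is given, since it was below background in both BES groups.

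CXCL10 was highest in granulocytes with IFNT (2.96 ± 0.045, SD, n = 4), followed by BES with IFNT (−0.49 ± 0.060, n = 3), BES with PBS (−1.13 ± 0.24, n = 3) and granulocytes with PBS (−3.35 ± 0.064, n = 4). No samples of neighbouring groups in that order overlapped, and CXCL10 was lower in granulocytes than in BES under PBS and higher under IFNT. Under PBS the gap was −2.22 ± 0.090 (SE, limma adjusted p = 4.4e-11), and under IFNT it was 3.45 ± 0.090, or 10.9-fold (adjusted p = 4.7e-13). Such gaps between the cell types were the rule, since 91.7% of the 12046 probes passed the threshold under PBS (45% as lower in granulocytes) and 92.2% under IFNT (47.6% as higher in granulocytes).

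CCL2 was one of the exceptions under PBS. Its mean level was −2.16 ± 0.30 in granulocytes (SD, n = 4) and −2.18 ± 0.10 in BES (SD, n = 3), and the samples of the cell types overlapped. The difference of 0.020 had a 95% confidence interval of −0.26 to 0.30 (limma adjusted p = 0.885). Its sign turned without BES PBS sample 2 (−0.038), granulocyte PBS sample 2 (−0.0064) or granulocyte PBS sample 3 (−0.11). Under IFNT, CCL2 was 2.38-fold higher in granulocytes (1.25 ± 0.13, SE, limma adjusted p = 7.9e-07). On the scaled levels the order was granulocytes with IFNT (−0.38 ± 0.075, SD, n = 4), BES with IFNT (−1.63 ± 0.023, n = 3), and the PBS groups together. CCL8 was measured above background in granulocytes with IFNT alone, at a level at least 2048-fold above BES with IFNT in processed signal. With normexp the fitted log2 gap in CCL8 between the cell types under IFNT was 9.06, which is less than that bound. The bound thus holds for the processed signal alone.

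**Figure D4:**
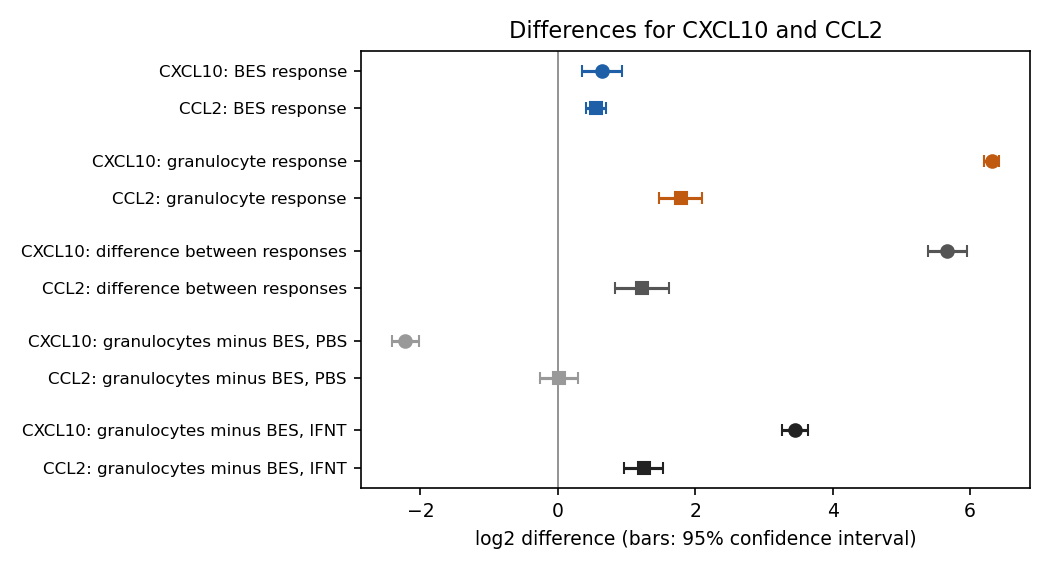
Differences on the log2 scale for CXCL10 (circles) and CCL2 (squares), with 95% confidence intervals as bars. The top rows are the IFNT responses within each cell type, the middle rows the difference between those responses, and the bottom rows granulocytes minus BES under each treatment, where the CXCL10 gap is −2.22 under PBS and 3.45 under IFNT.

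The neighbouring genes and other ligands were read next, from lists of the chemokine pathway. CXCL9 and CXCL11, the other CXCR3 ligands, have no named probe here, so CXCL10 alone stands for the 3 genes of that list. NUP54, a nuclear pore gene within 2 genes of CXCL10, changed by 0.13 ± 0.053 in BES (SE, limma adjusted p = 0.197) and rose by 0.25 ± 0.064 in granulocytes (adjusted p = 0.0127). CCL11, which lies between CCL8 and CCL2, was not well above background on any of the 14 arrays.

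Among 23 chemokines that attract monocytes and lymphocytes, 14 had a named probe, CCL8 and CCL2 included. In granulocytes 10 were tested, of which 4 rose and 2 fell (17.2% and 27.4% of all probes), with a median change of −0.019 against −0.054 for all probes tested. The rises were CCL8, CCL2, CCL4 (0.89 ± 0.088, SE), an attractant of monocytes and T cells, and XCL1 (0.28 ± 0.093), a lymphocyte chemokine. Of these, CCL8 had to differ, as it passed the filter through its IFNT arrays alone. CCL5, a T cell chemokine, fell by 0.17 (SE 0.045), and CXCL16, a ligand of CXCR6, fell by 0.27 (SE 0.088). XCL1 and CXCL16 are named here after their values were seen. In BES 9 were tested, CCL2 alone rose and none fell (limma, with 3 falls and 2 rises at an unadjusted p under 0.05), where 2.29% of all probes rose, and the median was −0.043 against −0.020 for all probes. CCL4 changed by −0.23 ± 0.055 in BES (adjusted p = 0.0766). Most of the mononuclear cell chemokines that could be tested thus did not pass as rises in either cell type.

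Chemokines for granulocytes and other cells went the opposite way to CXCL10, CCL8 and CCL2 in granulocytes. All 7 tested members of this list of 14 fell, with a median of −1.37, where 27.4% of all probes fell, and none rose (limma, 0 rises at an unadjusted p under 0.05 as well). GRO1, a neutrophil attractant that binds CXCR2, fell by 1.41 (SE 0.061), and CXCL2, of the same group, fell by 1.09 (SE 0.063). CCL24, an attractant of eosinophils through CCR3, fell by 1.62 (SE 0.073). CCL20, the ligand of CCR6, was below background on all IFNT arrays and at least 1.55-fold lower. It passed the filter on dim probes through its PBS arrays alone and so had to fall, and with CCL20 set at that bound the median of the list was −1.09. In BES 6 members were tested and none passed the threshold in either direction, against 3.66% of all probes. At an unadjusted p under 0.05 (limma) there were 2 falls and 0 rises. The falls were GRO1 at −0.38 ± 0.10 and CXCL3 at −0.16 ± 0.060.

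**Figure D5:**
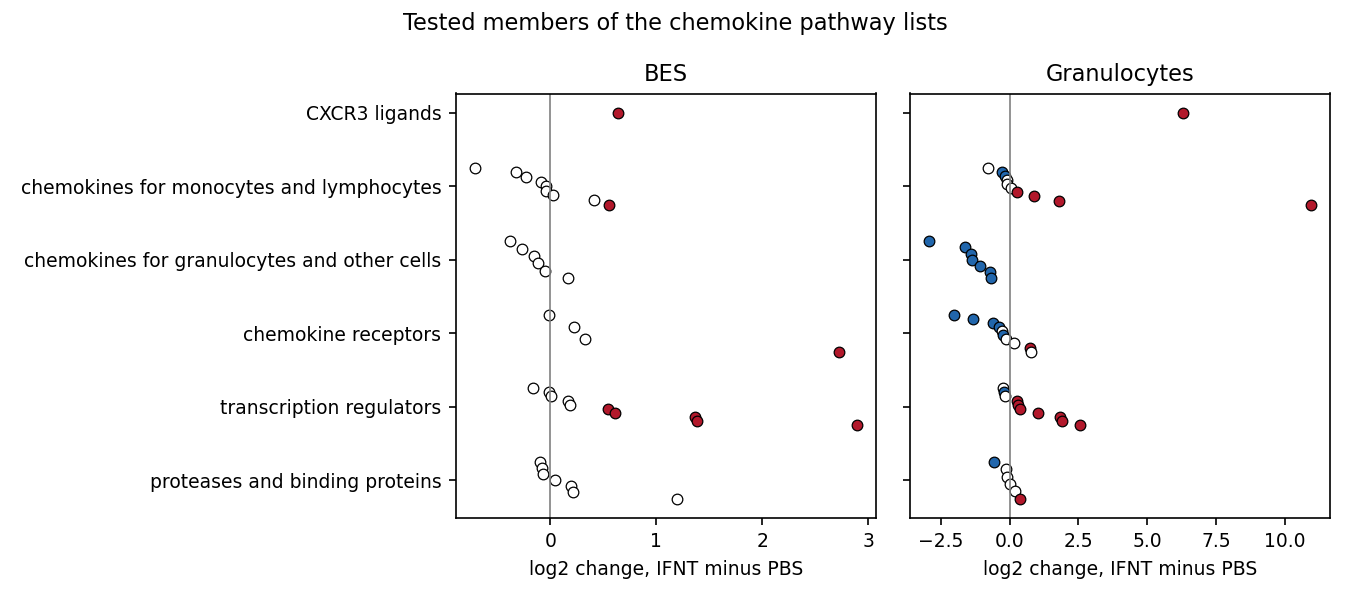
Fitted log2 change, IFNT minus PBS, of the tested members of 6 chemokine pathway lists in BES (left) and granulocytes (right), on separate horizontal scales. Red points rose and blue points fell at an adjusted p under 0.05, and open points did not pass. In granulocytes the 7 tested chemokines for granulocytes and other cells all lie below 0, and CXCL10 and CCL8 lie farthest above 0.

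The receptors for these ligands were only partly measured. CXCR3, the receptor of CXCL10, was well above background on 1 of the 14 arrays, in a granulocyte sample with IFNT, and CCR2, the main receptor of CCL2, has no named probe. Of 23 receptor genes, 10 were tested in granulocytes, and 1 rose while 5 fell (17.2% and 27.4% of all probes), with a median of −0.26. CXCR4, the receptor of CXCL12, fell by 2.02 (SE 0.10), CCR3 fell by 1.34 (SE 0.074) and CXCR1, a CXCL8 receptor of neutrophils, fell by 0.23 (SE 0.046). In BES 4 were tested and 1 rose, ACKR4, a scavenging receptor, which was below background with PBS and at least 1.34-fold higher with IFNT, where 2.29% of all probes rose. ACKR4 passed the filter on dim probes through its IFNT arrays alone, so it had to differ, and it lost its call with normexp. None fell in BES (limma, 0 falls at an unadjusted p under 0.05).

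The list of transcription regulators holds factors below the interferon receptor together with NF-kappa-B and AP-1 genes. In granulocytes 7 of 10 tested rose and 1 fell (17.2% and 27.4% of all probes), with a median of 0.34. IRF1 rose by 1.90 ± 0.12 (SE), IRF9 by 1.03 ± 0.054 and the probe named IRF3 by 2.56 ± 0.087. In BES 5 of 10 rose, against 2.29% of all probes, and none fell (limma, with 1 fall at an unadjusted p under 0.05), with a median of 0.36. IRF9, the DNA-binding part of the interferon-activated complex, rose by 2.89 ± 0.054 in BES and IRF1 by 1.38 ± 0.071. The levels differed as well. IRF9 had a mean level of −0.33 with PBS and 2.56 with IFNT in BES, and of 5.64 and 6.68 in granulocytes. IRF1 had −4.76 and −3.37 in BES, and 2.67 and 4.57 in granulocytes. CXCL10 rose by 0.64 in BES and by 6.31 in granulocytes. A link between these regulators and CXCL10 was not tested.

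Proteases that trim or release chemokines, and proteins that bind them, form the last list. DPP4, which removes the first residues of CXCL10, was well above background on 1 of 14 arrays. In granulocytes 6 of the list of 10 were tested. CTSS, a lysosomal protease, rose by 0.39 ± 0.058 (SE) and MMP9, a neutrophil gelatinase, fell by 0.56 (SE 0.054), with a median of −0.045. Of all probes, 17.2% rose and 27.4% fell. In BES none of 7 passed the threshold, against 3.66% of all probes (limma, with 2 rises and 0 falls at an unadjusted p under 0.05). The rises short of the threshold were MMP14, a membrane protease, at 1.20 ± 0.33 (adjusted p = 0.0997) and TNFAIP6, a chemokine-binding protein, at 0.21 ± 0.077.

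Monocytes are a known source of all 3 chemokines, so markers of other cells are given beside the granulocyte result. All 8 measured granulocyte markers were above background on every granulocyte array, with summed levels (linear, relative to the 75th percentile) of 719 to 920 with PBS and 748 to 833 with IFNT. Of these 8 markers 4 rose with IFNT, among them FCGR3A (1.34 ± 0.093, SE), CATHL2 (1.33 ± 0.093) and LTF (1.00 ± 0.065), and MMP9 fell by 0.56. Of all probes tested in granulocytes, 17.2% rose and 27.4% fell, the shares to set beside each marker list here. The eosinophil markers CCR3 and ALOX15 fell by 1.34 and 0.21, and their summed level was 13.7 to 14.5 with PBS and 10.6 to 12.1 with IFNT. Of 12 monocyte and macrophage markers 7 had a probe, and all 7 were above background on the granulocyte PBS arrays. CD14, C1QB and C1QC rose by 1.03, 0.47 and 0.41 with IFNT. CD36 (well above background on 1 IFNT array) and CD68 fell by 1.40 and 0.36. The summed level was 29.0 to 31.3 with PBS and 27.3 to 28.3 with IFNT. Of 12 measured T and NK cell markers, 9 were above background on every PBS array and 10 on every IFNT array, CD4 on none, with sums of 15.4 to 17.3 and 15.9 to 16.9. NKG7 (0.93 ± 0.18, SE) and PRF1 (0.27 ± 0.087) of that list rose with IFNT and none fell (limma, with 2 falls at an unadjusted p under 0.05). The sums are linear, so their brightest members weigh most. Among the monocyte and macrophage markers that was CD68 (log2 level 4.67 with PBS, 4.31 with IFNT). Among the T and NK cell markers it was CD247 (3.70 and 3.66). The sums therefore do not measure the share of such cells. The part of such cells in the rise of CXCL10, CCL8 and CCL2 was not tested.

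The BES arrays carried all 9 measured stromal markers, with summed levels of 156 to 159 with PBS and 167 to 170 with IFNT. Epithelial markers were found too, with higher summed levels. CDH1, KRT8, KRT19 and MUC1 were above background on all 6 BES arrays and EPCAM on none, with summed epithelial levels of 207 to 235 with PBS and 217 to 219 with IFNT. Of the T and NK cell markers, CD2, CD247, GZMB and PRF1 were above background on all 6 BES arrays, and CD3D, CD3E, CD3G, CD4, CD8A and NKG7 on none. Of the 7 monocyte markers, CD14, CD36, CD68, C1QA and VCAN were above background on all BES arrays and C1QB and C1QC on none, and the summed level was 0.606 to 0.697 with PBS and 0.534 to 0.677 with IFNT. The part of epithelial cells in the BES values of CXCL10 and CCL2 was not tested.

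The genes closest in pattern to each chemokine were found among 4933 named genes by Pearson's r of the scaled levels over the 14 arrays. These arrays fall into 4 groups on 2 slides, so r mostly reflects group means and is given as a description. For CXCL10 those reported were NIPA2 (0.994), MRPL32 (0.992), IQCD (0.991) and PSMA2 (0.989). For CCL8, with substitute values on 8 arrays, they were NECTIN2 (0.994), TUFT1 (0.993), AP1AR (0.993), CHAF1A (0.992) and LOC515736 (0.992). For CCL2 they were EIF4E (0.970), IL12A (0.970), TMEM106A (0.967), PDE12 (0.967) and PSMA2 (0.961). PSMA2 was the gene named for 2 of the chemokines. These genes share the pattern and not the size, as their granulocyte rises ran from 0.98 (TUFT1) to 3.20 (LOC515736).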

How the data were processed

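RNA labelled with Cy3 was hybridised to 1 array per sample. The deposited scanner files hold intensity per spot, and per the submitters' processing notes they were made with Agilent Feature Extraction 9.5, which corrects the processed signal for background and puts substitutes on spots at background. Values in the authors' table are log2. Each column was the log2 processed signal minus 1 constant per array, with column medians of −3.42 to −3.23, and its scale and direction follow from that match.

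The log2 processed signal minus each array's 75th percentile was tested with limma 3.58.1 in R 4.3.3, two-sided, with Benjamini-Hochberg adjustment over all probes tested and a threshold of 0.05. A probe was tested if well above background on at least 3 BES or 4 granulocyte arrays. Outlier spots were left out. Of 15208 probes, 6153 received a symbol through the RefSeq bovine gene table (ARS-UCD2.0) or the files. For other genes the brightest tested probe was used. "At least" folds set the bright group's mean against the higher of the dim spot and the lowest signal called well above background on each dim array. They were computed on the processed signal. Always named were the 3 chemokines, then up to 4 list members by smallest p in granulocytes and 2 in BES, and the 5 genes most alike. Some genes of the lists and of those most alike are not reported here, though counts, sums and medians include them. Members and lists were chosen with earlier results of these data known. The fit was tested on simulated data.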

Additional observations from a re-analysis of the deposited data

Results flagged for a closer look

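The response of CXCL10 to IFNT differed between the cell types, by 5.67 ± 0.13 on the log2 scale (SE, limma, adjusted p = 2.7e-11). Its level was higher in 4 of 4 granulocyte and 3 of 3 BES samples with IFNT than in every PBS sample of the same cells. Such groups that do not overlap, with IFNT higher, were found for 16.8% of probes in granulocytes and 12.5% in BES, and responses differed for 26.5% of probes. The response of CCL2 differed by 1.23 ± 0.18 (limma adjusted p = 3.1e-04), and its level was higher with IFNT in the same counts of samples. No sample of the granulocyte groups stood apart from its group in CXCL10, CCL8 or CCL2 by Dixon's test, which was not applied to the BES groups of 3.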

How the results depend on the processing

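The direction of the CXCL10, CCL8 and CCL2 responses, of the differences between responses, and of the CXCL10 gaps between cell types and the CCL8 gap under IFNT was the same under every alternative run. In BES, CXCL10 lost its call with quantile normalization (0.61, adjusted p = 0.0554), with no filter on dim probes (0.64, adjusted p = 0.131) and with the replicate block (0.64, adjusted p = 0.0746), and CCL2 lost it with array row as a covariate (0.52). The count of BES probes past the threshold was 414, and 189 with no filter, 1011 with an intensity trend and robust prior, and 149 with array row. Leaving out 1 sample gave 183 to 626 (234 and 227 without PBS samples 1 and 2, 626 without PBS sample 3, and 187, 213 and 183 without IFNT samples 1, 2 and 3), CXCL10 rises of 0.51 to 0.74, and CCL2 gaps under PBS of −0.11 to 0.13, with −0.038, −0.0064 and −0.11 where the sign turned. With normexp, BES calls were 295 higher and 326 lower, against 259 and 155, and ACKR4 lost its call while 1 member of the list of proteases and binding proteins gained one. Causes were not tested, beyond fewer samples or other probes tested. Whether equal replicate numbers pair the samples is not stated. Same-number correlations were −0.013 to 0.059 in BES and −0.12 to 0.20 in granulocytes, too few and too weak to settle it. The replicate block changed no other call of the 3 chemokines within a cell type, with 318 BES and 4674 granulocyte probes past the threshold. List members were not run with it. It was not run for granulocytes against BES, and array row could not be fitted in granulocytes. CCL8 has no value where all arrays of both groups must exceed background, nor where a granulocyte IFNT sample was left out. In the runs with a value, fitted CCL8 rises ran from 7.56, with normexp, to 11.13. Leaving out a granulocyte PBS sample gave 10.76 to 11.13.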
